A study of Mus musculus with 6 samples.

Results

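Granins are acidic secretory proteins that aggregate in the trans-Golgi network and help to load peptide hormones and amines into dense-core vesicles. Inside these vesicles prohormones are cut at pairs of basic residues by the convertases encoded by Pcsk1 and Pcsk2, and the carboxypeptidase encoded by Cpe then trims the basic residues left at the cut ends. In the embryonic brain this machinery is known from newly formed neurons, and several of its genes are textbook targets of REST, a repressor that binds the RE1 element and keeps neuronal genes low outside neurons. The 10 genes described here were chosen by symbol: the granins Chga, Chgb, Scg2, Scg3 and Vgf, the convertase chaperone Scg5, the convertases Pcsk1 and Pcsk2, the convertase inhibitor Pcsk1n, and Cpe. The array carried 10 probes for 8 of them, of 25696 probes and 16593 named genes in all. Pcsk2 and Cpe had no probe under their names and were not analysed here.

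Levels were measured in whole E12.5 brains of C57/BL6 embryos, with 1 Illumina BeadChip array per brain. The 3 knockout brains carried Nestin Cre+ together with Rest GTi/GTi and p53 fl/fl, and the 3 control brains were littermates with Rest GTi/GTi and p53 fl/fl but without Cre. Both groups therefore carried the conditional Rest gene trap and the floxed p53 allele on both chromosomes. In the GTi allele the trap lies in the inverted, silent orientation, and Cre turns it back so that Rest transcripts end in the trap cassette. Cre was driven by Nestin and acts in neural progenitors and their progeny, whereas other cells of the dissected brain kept both genes. REST loss, p53 loss and the presence of Cre all separate the same groups and cannot be told apart. The labels call the samples of a group biological replicates and give neither litter nor sex.

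The number of detected probes was similar on the 6 arrays, from 13416 to 13889. The Rest probe was detected on 0 of 6 arrays, so the targeted transcript was not checked, and p53 was not analysed here. The array of knockout replicate 2 stood apart from the other 5. It lay at 40.7 on the leading principal component (32.5% of the variance), where the others lay between -14.8 and -0.84. Relative to the control mean, the median of the mesenchyme and meninges markers was -2.79 on this array, against -0.63 and 0.31 on the other knockout arrays (log2). The median of the choroid plexus markers was -1.46 there and that of the young neuron markers 0.44. Member and marker list results are also given without it.

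The sequence upstream of the granin genes is shown first because REST, a factor targeted in the knockout brains, binds DNA. RefSeq promoter windows on GRCm38.p6, from 250 bases before to 50 bases after the transcript start, were matched for 8 of the 10 genes, all except Vgf and Cpe. Both strands were searched for the left and right parts of the RE1 element, TCAGCACC and GGACAG. Scg2 was the 1 of 8 windows that held either part. Of 32851 windows in all, 1.65% held TCAGCACC and 22.2% held GGACAG. The search was set at the usual gap of 2 bases between the parts. In Scg2 the parts stood end to end with no gap, an arrangement that was counted only after it had been seen there and that was found in 2 of the 32851 windows (0.00609%). With the gap of 2 and up to 3 mismatches, both parts were found in 4.58% of all windows and in 0 of the 8. The cyclic AMP response element TGACGTCA and its core TGACG, the site of CREB family factors, were searched for after the windows had been read. TGACGTCA was present in 3 of 8 windows (Scg2, Chgb and Pcsk1), against 1.79% of all, and TGACG in 7 of 8, all except Pcsk1n, against 20.8% of all. The second motif lies within the first, and neither overlaps the RE1 parts in Scg2. The stretches below show 3 granins, Scg2 and Chgb with the element and Chga with its core, in the direction of the gene, with TGACGTCA, its core and the joined RE1 parts (read here on the opposite strand) in capitals.
Scg2 (chr1:79440026-79440126, minus strand, 100 bases upstream and the first transcribed base): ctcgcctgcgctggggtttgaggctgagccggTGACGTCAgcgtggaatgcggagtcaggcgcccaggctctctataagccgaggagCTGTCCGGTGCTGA
Chgb (chr2:132781542-132781641, plus strand, 100 bases upstream): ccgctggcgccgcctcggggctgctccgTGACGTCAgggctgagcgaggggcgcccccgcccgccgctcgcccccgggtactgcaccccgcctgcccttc
Chga (chr12:102554841-102554940, plus strand, 100 bases upstream): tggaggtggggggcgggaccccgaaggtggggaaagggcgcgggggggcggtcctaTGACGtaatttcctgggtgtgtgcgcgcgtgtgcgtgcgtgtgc
The response element began 68 bases before the start in Scg2 and 72 bases before it in Chgb, and its core 44 bases before the start in Chga. The joined RE1 parts in Scg2 began 13 bases before the start and ended on the first transcribed base. A match of letters is a description of the window and not a measured binding site, and most of each gene lies outside it.

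Of the genes measured, Chga and Scg3 were higher in knockout brains by the unadjusted test, Scg2, Pcsk1n, Chgb and Vgf had positive differences that did not pass it, and Scg5 had a negative one. Of 10 probes, 9 for 7 genes were tested, since they were detected on at least 3 of 6 arrays. After Benjamini-Hochberg adjustment limma called 0 of 13755 probes (0%) between the genotypes, with a smallest adjusted p of 0.383, so no member passed. At an unadjusted p under 0.05 it counted 632 probes (4.59%), of which 310 (2.25% of all tested) were higher in knockout brains. The members gave 3 of 9 probes at that threshold, all 3 higher and 0 lower, and they stood for 2 genes because 2 of the probes were for Chga. In 3 of 9 probes, those of Scg3, Pcsk1n and 1 of Chga, the 3 knockout levels all lay above the 3 control levels, against 644 of all tested probes (4.68%). Both counts were made on genes chosen with earlier results known, and Chga and Scg3 also appear on the study's own list for these samples, so neither count is independent evidence of a direction. With each gene represented by its brightest probe, 6 of 7 members had a positive difference, from -0.14 to 0.74 with a median of 0.33 (log2, knockout minus control), beside a median of -0.0054 over all 9408 genes tested. By that rule 1 of 7 members, Scg3, was under 0.05 unadjusted, against 4.17% of all genes. Vgf met the detection filter only through the knockout group, with 3 of 3 knockout and 1 of 3 control arrays. Restricted to probes detected on all arrays, the member median was 0.31. The tissue was a bulk sample, in which fewer cells of a type and less RNA per cell cannot be told apart.

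**Figure D1:**
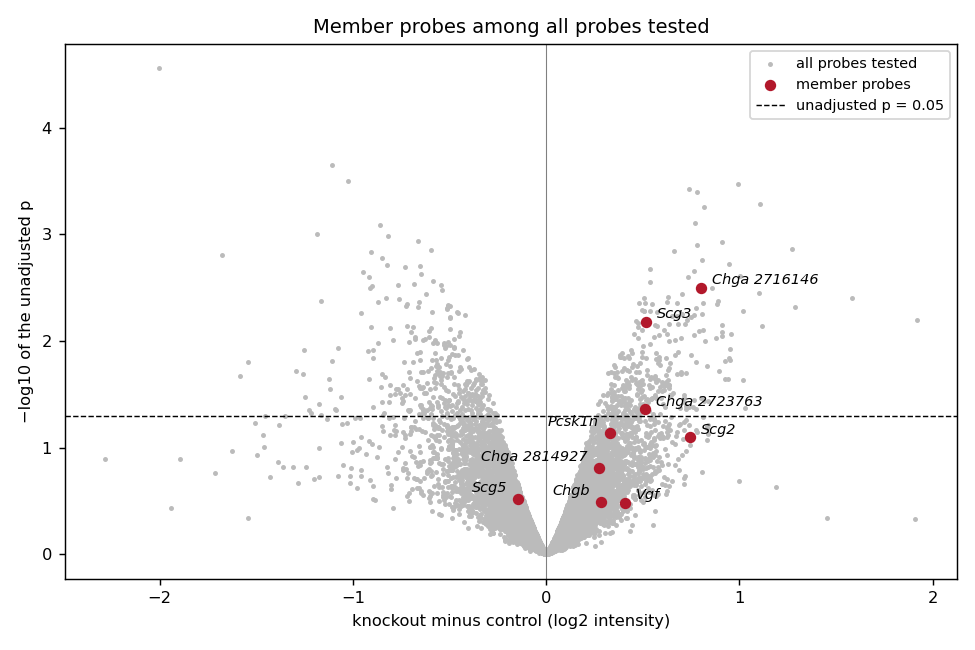
Difference between genotypes (x axis, log2 intensity, knockout minus control) against −log10 of the unadjusted limma p (y axis) for each tested probe, with the 9 member probes in red and the 13755 tested probes in grey. Among the members 3 probes, 2 of Chga and 1 of Scg3, lie above the dashed line at 0.05, and Scg5 is the 1 member left of 0.

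Chga (chr12:102554941-102565027, GRCm38.p6) encodes chromogranin A, the granin best known from adrenal chromaffin granules and the precursor of several peptides. It was the only member with 3 probes, and they did not give the same size of difference. At probe ILMN_2716146 the log2 level was 9.08, 9.14 and 8.73 in knockout replicates 1 to 3, against 8.12, 8.46 and 7.97 in control replicates 1 to 3. All knockout levels lay above all control levels at this probe. The means were 8.98 ± 0.22 in knockout and 8.18 ± 0.25 in control brains (SD, n = 3 each), a difference of 0.80 (SE 0.18, 95% interval 0.37 to 1.23). This was a 1.745-fold higher level and the probe ranked 40 of 13755 by p, with an adjusted p of 0.91 in limma. Without knockout replicate 2 the difference was 0.72. On the deposited intensities, from which no background had been taken here, the fold was 1.401.

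At the other Chga probes the groups overlapped. ILMN_2723763 had levels of 8.45, 9.20 and 8.99 in knockout brains, against 8.46, 8.21 and 8.43 in control brains, with knockout replicate 1 at the control level. Its difference was 0.51 (SE 0.21, interval 0.02 to 1.01), which passed the unadjusted threshold with all 6 arrays but not when any array other than knockout replicate 1 was left out, or with the replicate number as a block, and it was 0.35 without knockout replicate 2. ILMN_2814927, the brightest Chga probe, had levels of 8.56, 9.10 and 8.62 in knockout brains, against 8.43, 8.58 and 8.46 in control brains. Here knockout replicate 2 stood above the rest and knockout replicate 1 lay just under the highest control. The difference was 0.27 (SE 0.17, interval -0.13 to 0.68), and 0.10 without knockout replicate 2. All 3 probes thus gave a positive difference, but their estimates ranged from 0.27 to 0.80, and the gene's size of change depends on the probe taken.

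**Figure D2:**
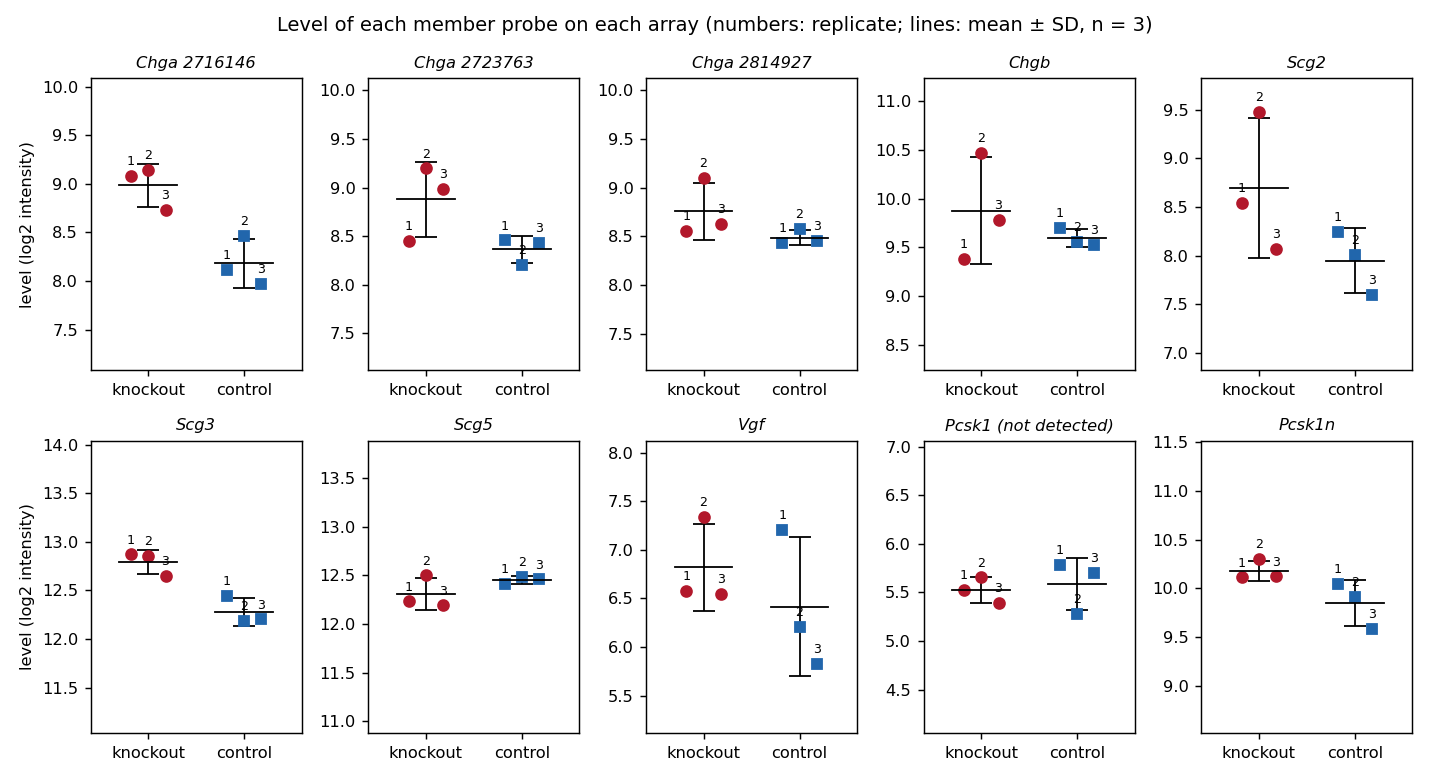
Level of each member probe (log2 intensity after background correction and quantile normalization) on each array, with knockout brains as red circles on the left and control brains as blue squares on the right, replicate numbers beside the points, and lines for the mean ± SD (n = 3). Each panel spans 3 log2 units around its own centre; knockout and control points separate in ILMN_2716146 for Chga, Scg3 and Pcsk1n, and knockout replicate 2 is the highest knockout point in 8 of the 9 tested probes.

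Scg3 (chr9:75643366-75685959), which encodes secretogranin III, an adaptor that anchors granin aggregates to the cholesterol-rich membrane of the forming granule, showed the steadiest difference. Its level was 12.87, 12.86 and 12.65 in knockout brains, against 12.44, 12.19 and 12.20 in control brains. The lowest knockout brain lay above the highest control brain. Means were 12.79 ± 0.13 in knockout and 12.28 ± 0.14 in control brains (SD, n = 3 each), and the difference of 0.51 (SE 0.13, interval 0.20 to 0.83) was a 1.429-fold higher level. The probe ranked 95 of 13755 by p with a limma adjusted p of 0.959. Leaving out any 1 array kept the difference between 0.47 and 0.60 and the unadjusted p under 0.05, and without knockout replicate 2 it was 0.48.

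Scg2 and Chgb both had their highest level in knockout replicate 2, as did every other tested member probe except that of Scg3. Scg2 (chr1:79434366-79440026) encodes secretogranin II, the precursor of secretoneurin. Its level was 8.54, 9.47 and 8.07 in knockout brains, against 8.24, 8.01 and 7.59 in control brains. Knockout replicates 1 and 2 lay above every control brain, whereas knockout replicate 3 lay under control replicate 1. The difference of 0.74 was the highest estimate among the brightest probes, but its SE was 0.36 and its interval ran from -0.12 to 1.61. Without knockout replicate 2 it was 0.35. In the main fit it did not pass the unadjusted threshold. It did with the replicate number as a block, with the trend and robust setting of limma, and without knockout replicate 3.

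Chgb (chr2:132781642-132795079) encodes chromogranin B, the second major chromogranin of the granule core. Its level was 9.38, 10.47 and 9.78 in knockout brains, against 9.70, 9.56 and 9.52 in control brains. Knockout replicate 1 was the lowest of all 6 brains and knockout replicate 2 the highest, with an SD of 0.55 among knockout and 0.096 among control brains. The difference was 0.28 (SE 0.27, interval -0.35 to 0.92), and it turned to -0.012 without knockout replicate 2.

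Vgf (chr5:137025301-137033351), a neurotrophin-inducible granin and precursor of several neuropeptides, was near the limit of detection. Its probe was detected on 3 of 3 knockout arrays and on 1 of 3 control arrays, at levels of 6.58, 7.34 and 6.55 in knockout brains, against 7.21, 6.21 and 5.82 in control brains. The control brains spanned nearly the whole range of the knockout brains, since control replicate 1 was the second highest of all. The difference of 0.41 (SE 0.39, interval -0.51 to 1.32) was 0.80 without control replicate 1, 0.11 without control replicate 3 and 0.15 without knockout replicate 2. The interval allows a difference of either sign, and at this signal a change of the size seen in Scg3 could not be told from none.

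Scg5 (chr2:113776313-113829091) encodes 7B2, the chaperone that the convertase PC2 needs to become active. It was bright on every array and was the member with a negative difference. Its level was 12.23 and 12.19 in knockout replicates 1 and 3 and 0.05 above the control mean of 12.45 in knockout replicate 2, against 12.41, 12.49 and 12.46 in control brains. Knockout replicates 1 and 3 lay under all control brains and knockout replicate 2 lay just above them. The difference was -0.14 (SE 0.13, interval -0.45 to 0.16), and -0.24 without knockout replicate 2.

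Pcsk1n (chrX:7919822-7924410) encodes proSAAS, a granin-like protein that inhibits the convertase PC1/3. Its level was 10.11, 10.30 and 10.12 in knockout brains, against 10.05, 9.91 and 9.58 in control brains. The groups did not overlap, but knockout replicates 1 and 3 exceeded control replicate 1 only narrowly. Means were 10.18 ± 0.11 in knockout and 9.85 ± 0.24 in control brains (SD, n = 3 each), with a difference of 0.33 (SE 0.16, interval -0.04 to 0.70, limma adjusted p 0.999). Left-out arrays moved it between 0.20 and 0.43, and it was 0.27 without knockout replicate 2. The gene is X-linked, and Xist, the transcript made from the inactive X chromosome, was high in knockout replicate 1 (12.16) and control replicates 1 and 3 (12.13 and 12.31), against 6.53 to 6.61 in the other brains. The Y-linked gene Eif2s3y ran the other way. It was at 11.93 and 11.88 in knockout replicates 2 and 3 and 12.58 in control replicate 2, against 5.41 to 5.46 in the other brains. Both groups thus held brains of each sex by these transcripts, but in unequal numbers. Among knockout brains Pcsk1n was 10.11 in the Xist-high brain, against 10.30 and 10.12 in the others, and among control brains it was 10.05 and 9.58 in the Xist-high brains, against 9.91 in the other.

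The convertase genes themselves gave little. The Pcsk1 probe was detected on 0 of 6 arrays, with values of 5.53, 5.66 and 5.39 in knockout brains, against 5.79, 5.28 and 5.70 in control brains, all within background. No fold is given for it, and a change of Pcsk1 below the detection limit could not have been seen. The chaperone and the inhibitor of the convertases were thus detected on all arrays in brains in which PC1/3 RNA was not detectable by this probe.

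**Figure D3:**
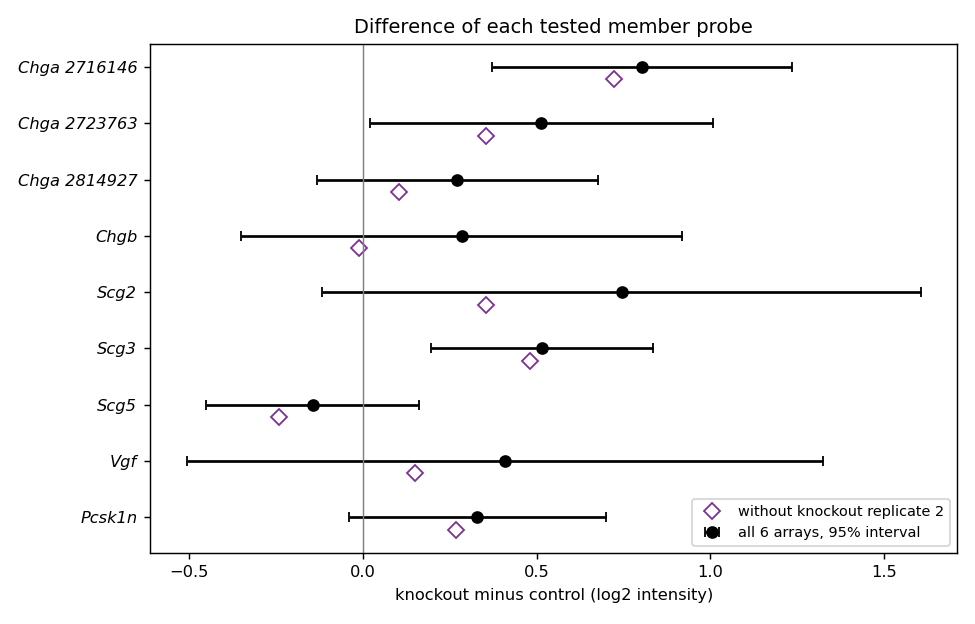
Difference of each tested member probe (x axis, log2 intensity, knockout minus control), with black points and bars for the estimate and 95% interval from all 6 arrays and open diamonds for the estimate without knockout replicate 2. The intervals of ILMN_2716146 and ILMN_2723763 for Chga and of Scg3 lie above 0, and without that array Chgb sits at -0.012 while Scg3 stays at 0.48.

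The levels of the members also varied by array within a genotype. Knockout replicate 2 was the highest of the 3 knockout brains in 8 of 9 member probes (88.9%), against 36.4% of all tested probes, and Scg3 was the exception by a narrow margin. Relative to the control mean, the median of the 7 members was 0.17, 0.61 and 0.14 in knockout replicates 1 to 3, against 0.17, 0.03 and -0.08 in control replicates 1 to 3. The median of the knockout brains other than replicate 2 was thus no higher than that of control replicate 1. Without knockout replicate 2 the median difference of the members was 0.15 with 5 of 7 positive, and 2 member probes passed the unadjusted threshold, those of Scg3 and of ILMN_2716146 for Chga. Without control replicate 1 the median was 0.60 and 4 probes passed.

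Markers of young neurons, the cells in which granins are known at this age, had their highest list median on the same array. Of 13 genes on that list (Tubb3, Dcx, Stmn2 and others) 11 were tested, 0 passed the unadjusted threshold, and their median difference was 0.08 with 7 of 11 positive, but -0.07 with 4 of 11 positive without knockout replicate 2. Their summed linear level ranged from 100800 to 150300 in knockout and from 113200 to 116100 in control brains. By array their median relative to the control mean was -0.01, 0.44 and -0.13 in knockout brains, against 0.03, -0.07 and -0.04 in control brains. The list median was thus raised in knockout replicate 2, and every tested marker except Tubb3 had its highest level there. Tubb3, the dimmest of them, was at 8.28, 7.42 and 7.67 in knockout brains, against 7.72, 7.29 and 7.28 in control brains. It was highest in knockout replicate 1. The neural progenitor markers, of which 5 of 6 were tested, had a median difference of 0.18, and 0.16 without knockout replicate 2. Their part in the member differences was not tested.

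**Figure D4:**
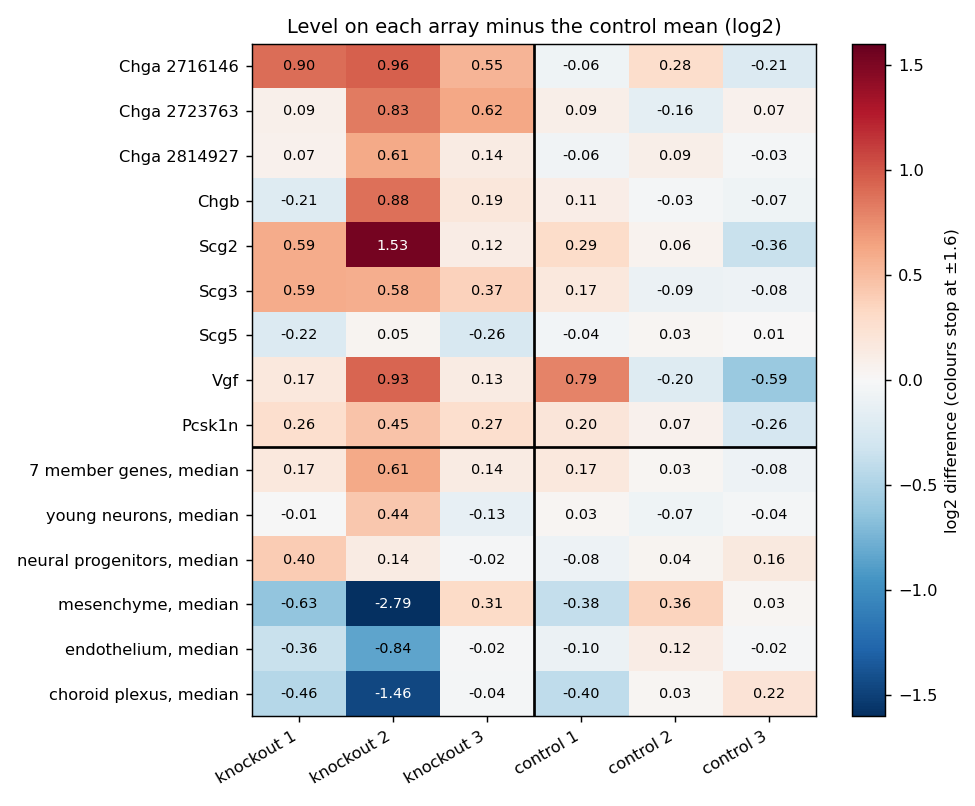
Level on each array minus the control mean (log2; numbers in cells, red higher and blue lower), knockout arrays on the left, for the 9 tested member probes in the upper block and for the median of the member genes and of marker lists in the lower block. Knockout replicate 2 has the highest member median (0.61), the highest young neuron median (0.44) and the lowest mesenchyme median (-2.79).

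Granins are also abundant in endocrine and chromaffin cells, so the markers of such cells were read beside them. Of 12 pituitary genes 9 had a probe and 8 of these, including Pomc and Cga, were detected on 0 of 6 arrays. Lhx3, the 1 tested, was at 7.70, 7.26 and 6.22 in knockout brains, against 6.16, 7.31 and 5.57 in control brains, which overlap. Its difference was 0.71, or 0.61 without knockout replicate 2. The probe was near the limit of detection, on 3 of 6 arrays, the fewest that the filter allowed. Of 8 genes of peripheral ganglia and the chromaffin lineage 4 were tested, with a median difference of -0.11 (-0.24 without knockout replicate 2), and Dbh and Hand2, which mark noradrenergic cells, were detected on 0 of 6 arrays. The summed level of this list was 10180 to 12750 in knockout and 11110 to 12960 in control brains. Nearly all of that sum came from Isl1 (mean log2 level 12.72 in knockout and 12.75 in control brains) and Pou4f1 (12.15 and 12.27). Th (7.25 and 7.35) and Prph (6.36 and 6.50, detected on 3 of 6 arrays) were dim. The sum therefore says little about the other genes of the list. Among the other lists the median difference was -1.05 for 8 mesenchyme and meninges genes, -0.655 for 5 choroid plexus genes and -0.42 for 6 endothelial genes. Their summed levels were 1385 to 10850 in knockout and 7987 to 12800 in control brains for mesenchyme. For choroid plexus they were 966.6 to 11800 in knockout and 11710 to 19910 in control brains, and for endothelium 2837 to 5176 in knockout and 4910 to 5437 in control brains. Without knockout replicate 2 these 3 medians were -0.12, -0.25 and -0.20. The microglia list had a positive median of 0.26 over 6 genes, of which 5 were positive, and 0.33 without that array, with summed levels of 1031 to 1434 in knockout and 933.3 to 1054 in control brains. The median of 5 erythroid genes was -0.07, and 0.18 without that array. Their part in the member differences was not tested.

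Other genes of the peptide pathway, from lists chosen by function, were then examined in the same fit. Of 57 genes 35 were tested, 2 passed the unadjusted threshold as higher in knockout brains and 0 as lower, beside 4.17% of all genes in either direction. The median difference was 0.07, with 22 positive and 13 negative. The 2 genes that passed were Ptprn and Cartpt. Ptprn encodes IA-2, a membrane protein of dense-core vesicles. Its level was 7.89, 7.69 and 7.14 in knockout brains, against 6.85, 6.91 and 7.10 in control brains, so the groups did not overlap, although knockout replicate 3 only just exceeded the highest control. Its difference was 0.62 (SE 0.21, limma adjusted p 0.999). Cartpt, the precursor of the peptide CART, was at 10.70, 10.88 and 10.73 in knockout brains, against 10.48, 10.49 and 10.15 in control brains. These groups did not overlap either, and the difference was 0.40 (SE 0.14, limma adjusted p 0.999), while the dimmer Cartpt probe gave 0.19. Of 41 tested probes of these lists, the groups did not overlap in 4 that were higher and 3 that were lower in knockout brains. Among all 13755 tested probes these numbers were 644 and 635. Without knockout replicate 2 the count was 0, and without knockout replicate 3 it was 4.

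The 4 other convertases tested all had a negative difference at their brightest probes, with a median of -0.15. Other tested probes of these genes gave -0.24 and 0.10. Furin, the convertase of the constitutive pathway, was at 11.27, 11.15 and 11.49 in knockout brains, against 11.62, 11.51 and 11.68 in control brains. All knockout levels of Furin lay under all control levels, as they did in 635 of all 13755 tested probes. Its difference of -0.30 (SE 0.14) did not pass even the unadjusted threshold. Of the carboxypeptidases related to Cpe 3 were tested and 0 passed. Cpxm1, a family member without known enzyme activity, averaged 8.20 ± 0.54 in knockout and 8.16 ± 0.67 in control brains (SD, n = 3 each). Of the genes for peptide modification 2 were tested and 0 passed. Pam, which amidates peptide ends, averaged 10.07 ± 0.27 in knockout and 9.86 ± 0.22 in control brains.

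Of 19 genes of the dense-core vesicle membrane and its release 12 were tested, with 7 positive, 5 negative and a median of 0.03. Rab3a, a small GTPase of vesicle release, was at 12.35, 12.63 and 12.14 in knockout brains, against 12.53, 12.36 and 12.33 in control brains, a difference of -0.035 (SE 0.16). The knockout brains lay on both sides of the controls. Besides Ptprn, 1 of 3 probes of Hid1, a gene of vesicle formation, passed the unadjusted threshold with a difference of 0.81, whereas its brightest probe gave 0.08. Of 22 peptide precursors 14 were tested and 11 had a positive difference, with a median of 0.26, and 0.18 without knockout replicate 2. Sst, the somatostatin precursor, was at 12, 12.54 and 11.84 in knockout brains, against 12.43, 12.11 and 12.18 in control brains, a difference of -0.11 (SE 0.21). Its levels overlapped, with knockout replicate 2 again the highest of all 6.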

How the data were processed

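Total RNA of 6 brains was hybridised to Illumina mouse reference arrays, and the authors read them with BeadStudio and applied quantile normalization with lumi. The deposited table holds a linear intensity per probe and array, and the detection p-value that the authors' software derived from negative controls. The authors' own comparisons were not used. Empty ID cells (2) displaced later IDs by 2 lines against their values, in 21806 of 25699 lines of the deposited file. The empty cells were dropped and IDs paired with values in order: over adjacent probes of 1 gene the levels then correlated at r = 0.473 (5962 pairs, across probes, which are not independent) against 0.258 as deposited. Symbols came from the platform annotation, matched to RefSeq (GRCm38.p6); of the probes tested 12948 had 1 symbol, 0 had several and 807 were unnamed.

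Intensities were background-corrected from detection p-values, quantile-normalized and log2-transformed by neqc (offset 16) of limma 3.58.1 under R 4.3.3. Probes with a detection p-value under 0.05 on at least 3 arrays (13755) were tested with lmFit and eBayes, two-sided and without covariates, and p-values were adjusted over them by Benjamini-Hochberg; fits were tested on simulated data. The number of arrays limits the precision. Each gene in a list stands by its brightest tested probe. All members are named, and of each pathway list every gene under 0.05 unadjusted and the gene with the highest mean level; Hid1 was named after its values were seen. The members and lists were chosen with earlier results of these data known. Alternatives changed background correction, filter, variance options, test, probe names, arrays and pairing. A planned description of protein sequences was not made.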

Additional observations from a re-analysis of the deposited data

How the results depend on the processing

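With 3 arrays per group the tests resolve large differences only, and probes near background, such as that of Vgf, are the least precise. All tested member probes except that of Chgb kept their direction under every alternative fitted with the repaired probe names. With no background correction, with normexp background correction (offset 50) and with eBayes set to trend and robust, 1 probe in all was called after adjustment, no member in any. The trend and robust setting gave 4 member probes and 4 pathway genes at an unadjusted p under 0.05, and the methods' t-test 2 member probes and 1 pathway gene. With probe names as deposited, and with the series matrix table, which holds the same displaced names, the counts were 1 member probe and 1 pathway gene, the median of the members was -0.063, Scg2 was -0.14 and Pcsk1n -0.24; these names point to the values of other probes, so the signs there say nothing about the named genes. Without a filter on dim probes 1169 probes passed the unadjusted threshold, against 632. Leaving out 1 array at a time gave 0 called probes in each fit, 2 to 4 member probes, a member median of 0.15 to 0.60 and 0 to 4 pathway genes; the Chgb difference was -0.012 without knockout replicate 2 and up to 0.53 without knockout replicate 1.

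Whether the replicate numbers pair the samples is not known, as the labels give no litter. The deviations of same-numbered brains correlated at -0.01, -0.08 and -0.15, which cannot decide it with 3 arrays per group. With the replicate block, 0 probes were called, 552 passed the unadjusted threshold, and the counts were 3 member probes and 2 pathway genes with a median of 0.33. The 3 probes were not the same ones: ILMN_2723763 for Chga no longer passed and Scg2 did. The cause of the other shifts was not tested.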
